A study of Homo sapiens with 4 samples.

Results

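The imprinted DLK1-DIO3 cluster of miRNAs on human chromosome 14 (band 14q32) was examined on 4 miRNA arrays of colonic adenocarcinoma cells. Members were the human probes whose names carry the miRNA numbers of this cluster, star-form probes left out, and 56 of the 1276 human miRNA probes on the array met this rule. RefSeq placed 55 of them on chromosome 14 (GRCh38.p14), on the plus strand wherever a mature position was listed, and the other, miR-544b, on chromosome 3 at chr3:124732486-124732507. HT-29 and LS174T, established lines of human colonic adenocarcinoma, had been stably transfected with an EGFP vector that expressed an shRNA against Ascl2 or with the same vector without insert, and all 4 were kept under G418. Each is named by vector and line, and values are given throughout for shRNA-Ascl2 and then shRNA-Ctr cells of HT-29, followed by shRNA-Ascl2 and then shRNA-Ctr cells of LS174T. Ascl2, a transcription factor switched on by Wnt signals, is known from the stem cells of the intestinal crypt. Each condition was measured on 1 array, so no comparison of vectors within a line has a replicate, and although several stable clones were established, the number that gave the RNA was not given in the sources used here. The arrays read miRNAs only, and the knockdown of Ascl2 was not checked with them.

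The locus is imprinted. DLK1, RTL1 and DIO3, the protein-coding genes, are expressed from the paternal chromosome, whereas the long noncoding RNAs MEG3, MEG8 and MEG9 and the miRNAs are expressed from the maternal chromosome and are read in the same direction. Many mature miRNAs are thought to be cut from long shared transcripts, and the cluster is best known for high levels in brain, placenta and embryonic tissue. Several members, miR-127, miR-136, miR-431 and miR-433 among them, lie antisense to RTL1, and in mouse such miRNAs cut the Rtl1 mRNA. A second large imprinted cluster, on chromosome 19, is known for its expression in placenta and served here for comparison, together with 146 probes for miRNAs of viruses.

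Signal was the mean over the 4 spots of a probe of foreground minus local background, in the linear units of the scanner, and a probe was taken as above background when this mean exceeded 50. Each array read the RNA of a whole culture, so fewer expressing cells and less miRNA per cell cannot be told apart. Errors are the SD over 4 spots of 1 array and thus technical. The 13 members above 50 on all 4 arrays carry most of what follows. Their mature sequences (RefSeq, GRCh38.p14, 5′ to 3′) are shown to let the probes' targets be told apart, with capitals for the seed, bases 2 to 8, through which a miRNA pairs with its targets. Of the 13, miR-668 is named only.
miR-127-3p: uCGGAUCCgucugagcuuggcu
miR-299-5p: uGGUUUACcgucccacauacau
miR-299-3p: uAUGUGGGaugguaaaccgcuu
miR-323-3p: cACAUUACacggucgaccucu
miR-543: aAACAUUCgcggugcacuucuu
miR-487b: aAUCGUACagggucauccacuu
miR-889: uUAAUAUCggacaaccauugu
miR-487a: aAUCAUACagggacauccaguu
miR-382: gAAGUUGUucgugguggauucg
miR-485-3p: gUCAUACAcggcucuccucucu
miR-323b-5p: aGGUUGUCcguggugaguucgca
miR-377: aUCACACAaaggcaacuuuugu
No seed was shared by any pair of these 12. miR-487a and miR-487b, 3 edits apart, were the closest pair among them.

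Another 4 sequences belong to members at background that flank the brightest hairpin or are the sister arm or paralog of a member above the limit, again with the seed in capitals.
miR-411: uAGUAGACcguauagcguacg
miR-380: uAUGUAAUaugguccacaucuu
miR-323-5p: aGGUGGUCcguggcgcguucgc
miR-323b-3p: cCCAAUACacggucgaccucuu
miR-323b-3p lay 3 edits from miR-323-3p, and miR-323-5p lay 4 edits from miR-323b-5p. miR-299-5p lies at chr14:101023800-101023821 and miR-299-3p at chr14:101023832-101023853, between miR-411 (chr14:101023340-101023360) and miR-380 (chr14:101025056-101025077). Elsewhere in the list, miR-376a and miR-376b shared the seed UCAUAGA, and miR-654-5p and miR-541 shared GGUGGGC. All 4 of these were below 50 on every array.

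Few members exceeded the background limit. On the shRNA-Ascl2/HT-29 array 17 of 56 members (30.4%, 95% Wilson interval 19.9 to 43.3%) were above 50, against 41.5% of all human miRNA probes. On shRNA-Ctr/HT-29 the count was again 17 of 56 (30.4%), against 43.0%. The shRNA-Ascl2/LS174T array had 15 members above 50 (26.8%, interval 16.96 to 39.6%), against 41.8%, and shRNA-Ctr/LS174T had 20 (35.7%, interval 24.5 to 48.8%), against 43.0%. The members' share was thus below that of all human probes on each array, by 7.3 to 15.0 percentage points. These intervals take each probe as an independent draw and leave out any variation between cultures.

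The viral probes gave shares close to those of the members. Of 146 viral probes 31.5%, 32.2%, 28.1% and 36.3% were above 50, in the order of the arrays above. In the chromosome 19 cluster, 24.4%, 28.9%, 20.0% and 22.2% of 45 probes were above 50. The 1108 empty spots per array had a median signal of 0 and a 99th percentile of 13 to 21, and among 7 negative control probes the highest signal was 28.3 to 65.5. Median signals of the members were 15.9, 17.5, 10.9 and 20.4, and those of all human probes were 26.0, 30.9, 27.5 and 31.5. At a limit of 100, 8, 8, 11 and 13 members remained above (14.3, 14.3, 19.6 and 23.2%). The shares were 31.4, 32.3, 31.8 and 31.0% for all human probes and 21.9, 21.9, 17.1 and 26.0% for viral probes. Only 1, 0, 3 and 1 members exceeded the 95th percentile of the viral probes on their own array, which was 882, 919, 711 and 1543.

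**Figure D1:**
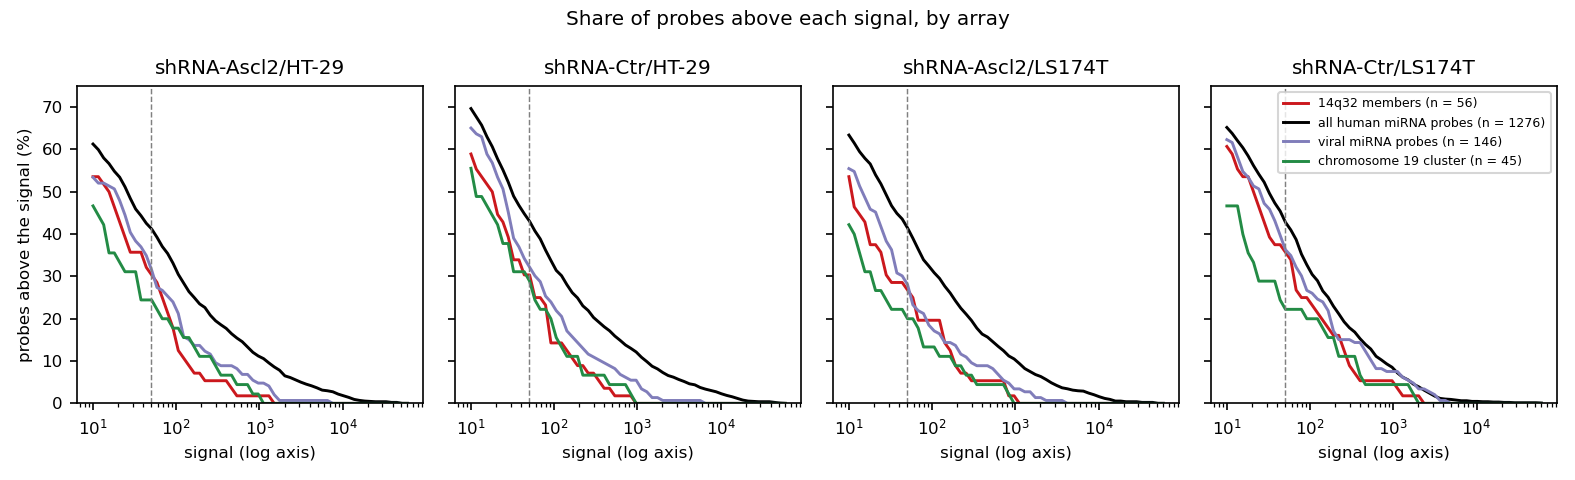
Share of probes (%) whose signal exceeded each value on the x axis (log axis) on each of the 4 arrays, for the 56 members, all 1276 human miRNA probes, 146 viral probes and 45 probes of the chromosome 19 cluster. The dashed line marks 50, where the members stood at 26.8 to 35.7% and all human probes at 41.5 to 43.0%.

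The same members tended to be above the limit on each array. Across the 56 members, 13 (23.2%) were above 50 on all 4 arrays, 9 on 1 to 3 arrays and 34 on none, whereas 34.1% of all human probes and 24.7% of viral probes were above 50 on all 4. For any pair of arrays, 49 to 52 of the 56 members fell on the same side of 50. Spearman's rho between arrays over the 56 members was 0.88 to 0.95, given as a description, since the arrays share the probes and their binding properties. The 34 members at background ranged from -28.0 to 41.8 over all arrays. They included miR-134, which in rodent neurons limits dendritic spine size, and miR-379, miR-410, miR-494 and miR-370. GC content had a median of 45.5% in the 12 sequences above 50 on all arrays, 45.5% in the 9 on 1 to 3 arrays and 47.6% in 33 of those on none.

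miR-299-5p was the brightest member on every array, at 1298 ± 61.6, 893 ± 86.0, 1055 ± 65.4 and 2285 ± 115 (SD, 4 spots). Its sister arm miR-299-3p read 482 ± 135, 376.75 ± 316, 737 ± 383 and 1214 ± 190. The 4 spots of this probe disagreed, from 110 to 733 on shRNA-Ctr/HT-29. miR-668 read 455 ± 135, 515 ± 186, 745 ± 108 and 1058 ± 225. These 3 probes were the brightest of the 56 members on each array, and for miR-299-3p and miR-668 both LS174T arrays were above both HT-29 arrays.

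The signals of another 5 members were between 91.5 and 345. miR-323-3p read 195 ± 89.7, 230 ± 60.04, 169 ± 47.6 and 324 ± 112. For miR-487b the signals were 111 ± 27.2, 306 ± 59.7, 263 ± 39.0 and 273 ± 13.98, so that shRNA-Ascl2/HT-29 was the low array. Its paralog miR-487a was at 129 ± 37.9, 190 ± 28.8, 140 ± 11.7 and 185 ± 15.0, with shRNA-Ascl2/HT-29 again lowest but within the SD of shRNA-Ascl2/LS174T. miR-377 was at 155 ± 55.4, 150 ± 32.2, 213 ± 50.3 and 345 ± 151, and miR-543 at 91.5 ± 23.2, 133.5 ± 75.8, 161 ± 25.9 and 277 ± 155. In both the HT-29 arrays were the lower ones, by less than the spread of the spots on shRNA-Ctr/LS174T for miR-543.

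The other 5 of the 13 lay closer to the limit on most arrays. miR-382 read 86.8 ± 12.3, 81.0 ± 39.8, 138 ± 14.2 and 244 ± 45.5. miR-323b-5p was alike, at 89.0 ± 31.1, 81.0 ± 45.9, 169 ± 39.4 and 250 ± 63.1. For miR-127-3p, which in human cancer cells is known to target BCL6, the signals were 92.0 ± 14.02, 71.5 ± 23.5, 126 ± 28.4 and 148 ± 35.6. The LS174T arrays were above the HT-29 arrays for each of these 3. miR-889 (100 ± 33.8, 91.0 ± 43.7, 66.5 ± 13.7, 118 ± 48.5) and miR-485-3p (78.5 ± 33.1, 85.5 ± 11.0, 60.5 ± 27.9, 128 ± 30.8) showed no such order, with shRNA-Ascl2/LS174T lowest in both. Differences in signal between probes do not order the miRNAs by amount, because probes differ in binding.

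Along the chromosome, members above and below the limit were interspersed. miR-299-5p and miR-299-3p stood between miR-411, at -4.5 ± 1.0, 2.5 ± 5.2, 0.25 ± 2.6 and -19.5 ± 20.4, and miR-380, at -16.3 ± 6.6, -11.8 ± 12.3, -10.5 ± 7.7 and -15.8 ± 9.5. miR-379, before miR-411, read between -2.25 and 10.0. In the group from miR-379 to miR-656, 12, 13, 13 and 16 of 43 members were above 50. In the group from miR-493 to miR-136, around RTL1, 5, 4, 2 and 4 of 10 were, with miR-127-3p the only one above 50 on all arrays. miR-431 and miR-433, which also lie antisense to RTL1, were at 0.25 to 12.0 and 10.8 to 22.5. miR-770-5p, within MEG3, and miR-370 were at background throughout.

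**Figure D2:**
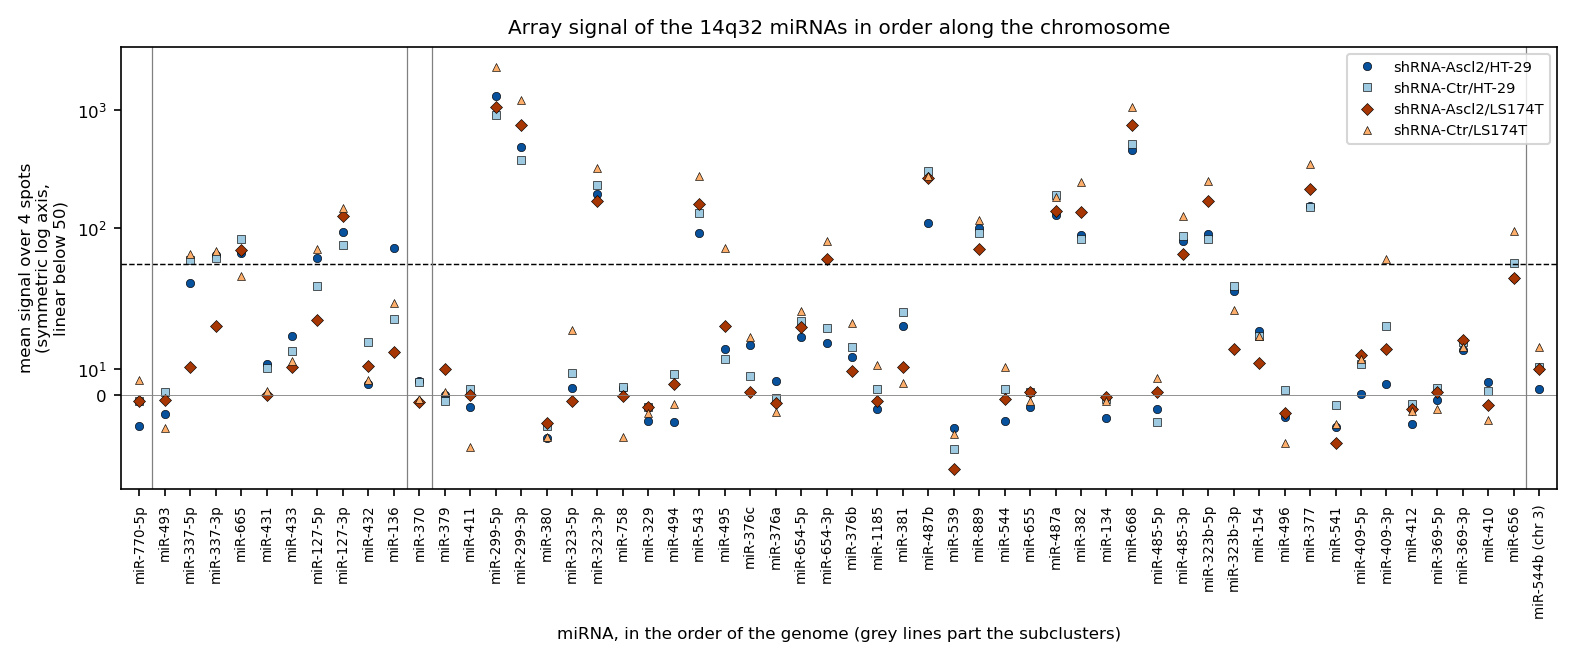
Signal (mean over 4 spots, symmetric log axis, linear below 50) of the 56 members on the 4 arrays, in their order along chromosome 14, with miR-544b of chromosome 3 last. The dashed line marks 50, and the 13 members above it on all 4 arrays are scattered among 34 members that never reached it.

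The probes for the arms of a hairpin often fell on different sides of the limit. Since probes differ in binding, their signals do not compare the amounts of the arms. Of 9 hairpins with a probe for each arm, only miR-299 had both arms above 50 on all 4 arrays. miR-323-3p and miR-485-3p were above on all 4 arrays, whereas miR-323-5p read -2.25 to 24.8 and miR-485-5p -10.3 to 6.75. The paralog miR-323b had the opposite arm above the limit, since miR-323b-5p exceeded 50 on all 4 arrays and miR-323b-3p read 17.8 to 41.8. miR-127 had the 3p arm above on 4 arrays and the 5p arm on 2, and miR-337 had them above on 3 and 2. Neither arm of miR-337 exceeded 64.0 on any array. Neither arm of miR-369 was above 50 on any array.

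To compare the vectors within HT-29, the arrays were scaled by the median of the miRNA probes above 50 on both, and a ratio of shRNA-Ascl2 to shRNA-Ctr was read for the 19 members whose brighter array exceeded 50. Past 2-fold, 1 of 19 members was higher and 1 lower in shRNA-Ascl2/HT-29, where 4.17% and 8.51% of the 576 human probes compared were higher and lower. miR-136 was higher, at 68.3 ± 18.9 against 29 ± 10.2 before scaling (ratio 2.57), and because the control array was below 50 this amounts to at least 1.43-fold. miR-487b was lower, at 111 ± 27.2 against 306 ± 59.7 (ratio 0.40). For both the scaled spots of the arrays did not overlap. The calls were picked from these same spots, and miR-411, at background, had no overlap in HT-29 either, so this adds no support. The other 17 ratios were between 0.5 and 2. For the 15 members above 50 on both arrays the median ratio was 1.13 and 6 ratios were under 1. The 502 human probes above 50 on both had a median of 1.02, with 241 under 1.

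The ratio could depend on where a spot lay on the array. Each probe is printed in blocks 1 to 18 and again in blocks 19 to 36, and the landmark controls were at 0.58, 1.23, 1.05 and 0.58 in the latter relative to the former on the 4 arrays. From the first range alone the HT-29 ratio of miR-299-3p was 4.96, from the second 0.71. The corresponding ratios of miR-136 were 2.00 and 3.06, and those of miR-487b 0.45 and 0.32, so these calls were made in either range.

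In LS174T, 0 of 21 members were higher and 8 lower past 2-fold in shRNA-Ascl2, where 28.8% and 25.4% of the 614 human probes compared were higher and lower. miR-299-5p was lower, at 1055 ± 65.4 against 2285 ± 115 before scaling (ratio 0.45), as was miR-485-3p, at 60.5 ± 27.9 against 128 ± 30.8 (ratio 0.46). The scaled spots of the arrays did not overlap for either, nor for any other of the 8. The calls were picked from these same spots, and miR-411, at background, had no overlap in LS174T either, so this adds no support. Read in either block range alone, 6 of the 8 stayed past 2-fold in both, whereas miR-485-3p was at 0.503 in blocks 1 to 18 and miR-656 at 0.515 in blocks 19 to 36. The remaining 6 calls were of miRNAs below 50 on shRNA-Ascl2/LS174T, and each is a bound under 2-fold once that array is raised to 50. miR-656 was at least 1.94-fold lower (44.5 ± 5.3 against 95.5 ± 32.7), miR-495 at least 1.37-fold (26.5 ± 4.9 against 67.8 ± 24.0), miR-127-5p at least 1.35-fold (28.5 ± 5.1 against 66.5 ± 28.5) and miR-337-3p at least 1.30-fold (26.3 ± 7.4 against 64.0 ± 15.9). miR-337-5p was at least 1.22-fold lower (11.0 ± 3.6 against 60.3 ± 8.7), and miR-409-3p at least 1.11-fold (17.8 ± 10.6 against 54.5 ± 8.6).

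The direction in LS174T was uniform among the members above 50 on both arrays and was also seen in probes outside the cluster. Members above 50 on only 1 of the arrays passed the filter through the brighter array, 6 through shRNA-Ctr and miR-665 through shRNA-Ascl2 (65.5 ± 12.1 against 45.3 ± 5.9), and were left out of the counts that follow. Of the 14 members above 50 on both arrays, 14 had ratios under 1, from 0.45 to 0.93 with a median of 0.59, beside a median of 0.85 for the 468 human probes above 50 on both, of which 265 were under 1. For viral probes 35 of 39 such ratios were under 1, with a median of 0.50. The chromosome 19 cluster had 9 of 9 under 1, with a median of 0.48. After scaling, the spike-in controls were 8.60-fold brighter on shRNA-Ascl2/LS174T than on shRNA-Ctr/LS174T (40 controls), against 1.03 in HT-29 (46 controls). The summed signal of 8 miRNAs of colonic epithelium (miR-192, miR-194, miR-215 and the miR-200 family) was 161222 to 207062 on 3 arrays and 22139 on shRNA-Ctr/LS174T, with miR-215 the only one at background on 3 arrays. For 8 miRNAs of other cell types (liver, muscle, neurons, blood and stroma) the sum was 828 to 2457, and 3, 3, 3 and 6 of them were above 50. On every array miR-122, miR-124 and miR-142-3p were above 50, at 57.3 to 96.0, 365 to 885 and 97.3 to 1437. miR-133a, miR-143 and miR-451 were above it on shRNA-Ctr/LS174T alone, at 51.5, 50.5 and 334. miR-1 and miR-145 were at background on every array. The part of these array-wide differences in the members' ratios was not tested.

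**Figure D3:**
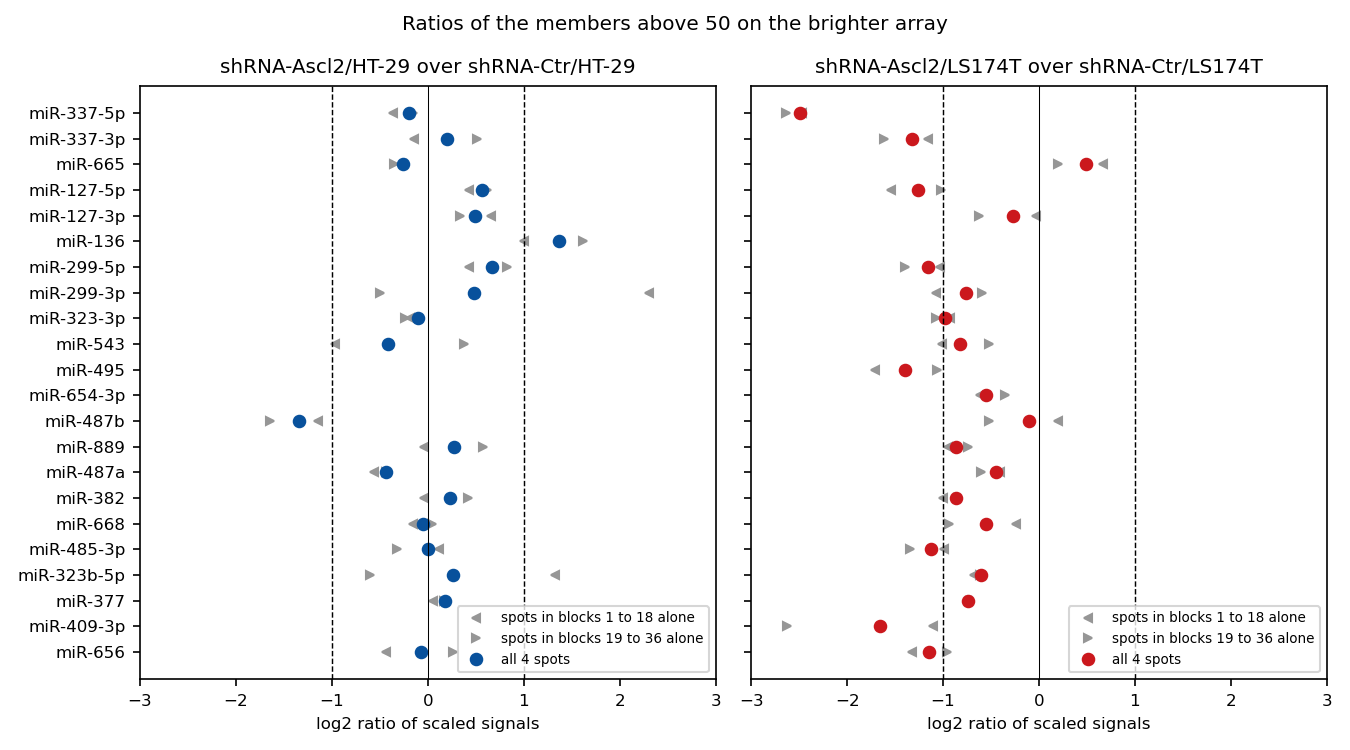
Log2 ratio of scaled signals, shRNA-Ascl2 over shRNA-Ctr, in HT-29 (left) and LS174T (right), for members above 50 on the brighter array. Circles use all 4 spots, triangles the spots of 1 block range, and dashed lines mark 2-fold, which 2 members passed in HT-29 and 8 in LS174T.

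A change by vector common to both lines was sought with limma, with cell line as a term, which left 1 residual degree of freedom. Of 22 members above 50 on at least 1 array, 0 were called in either direction at an adjusted p under 0.05, and 0 had an unadjusted p under 0.05. No call was made among all human probes tested (0% in each direction). The smallest adjusted p of a member was 0.971. For the 13 members above 50 on all arrays the median fitted log2 difference, shRNA-Ascl2 minus shRNA-Ctr, was -0.26, beside -0.07 for the 435 human probes above 50 on all arrays. Among members above 50 on both arrays of a line, 14 of 14 ratios were under 1 in LS174T and 6 of 15 in HT-29. Such ratios were under 1 for 265 of 468 and 241 of 502 human probes. For viral probes the counts were 35 of 39 and 16 of 42, and for the chromosome 19 cluster 9 of 9 and 3 of 10. The contrast between the lines was thus not particular to the members, and it was not tested.

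The lines were compared with limma over 2 arrays each, which differ in vector, on log2 signals scaled to a common median and raised to 50. No member was called (0% of all human probes tested were called in each direction), while 6 members had an unadjusted p under 0.05, all higher in LS174T, as had 39 of all human probes tested, with 30 higher in HT-29. miR-323b-5p was the first of these, with scaled signals of 85.7 and 72.5 in HT-29 against 186 and 263 in LS174T. Its log2 difference, HT-29 minus LS174T, was -1.49 ± 0.31 (SE, adjusted p = 0.394 in limma). The other 5 were miR-668 (-1.09), miR-299-3p (-1.37), miR-382 (-1.34), miR-127-3p (-0.97) and miR-377 (-1.04), with limma's adjusted p from 0.415 to 0.452. With vector added as a block (1 residual degree of freedom), 0 members had an unadjusted p under 0.05 and the smallest adjusted p of a member in limma was 0.821. Spike-in scaling likewise left 0 members with an unadjusted p under 0.05 in limma. The other settings with all 4 arrays gave from 2 such members (quantile normalization) to 6 (the authors' value table), all higher in LS174T. Of the 13 members above 50 on all arrays, both LS174T arrays were above both HT-29 arrays after scaling for 8 (61.5%), against 24.4% of the human probes above 50 on all arrays, and the opposite held for 0, against 18.4%.

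The fit between the lines was repeated with each array left out. The shRNA-Ctr/LS174T array stood apart in the marker and spike-in signals, and its part in the difference between the lines was not tested. With all arrays, 13 of the 13 members above 50 throughout were lower in HT-29, with a median log2 difference of -0.97, beside -0.19 for the 435 human probes above 50 throughout, of which 255 were lower. Without shRNA-Ctr/LS174T, 10 of 13 were lower and the median was -0.76, beside -0.05. Without shRNA-Ascl2/HT-29, 13 of 13 were lower and the median was -1.05, beside -0.21. Leaving out shRNA-Ctr/HT-29 gave 12 of 13 and -0.97, beside -0.10. Without shRNA-Ascl2/LS174T, LS174T was left with the array that stood apart, and 13 of 13 were lower with a median of -1.27, beside -0.28. With 1 array in a line the spread comes from the other line alone, so only effect sizes are given for these fits.

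**Figure D4:**
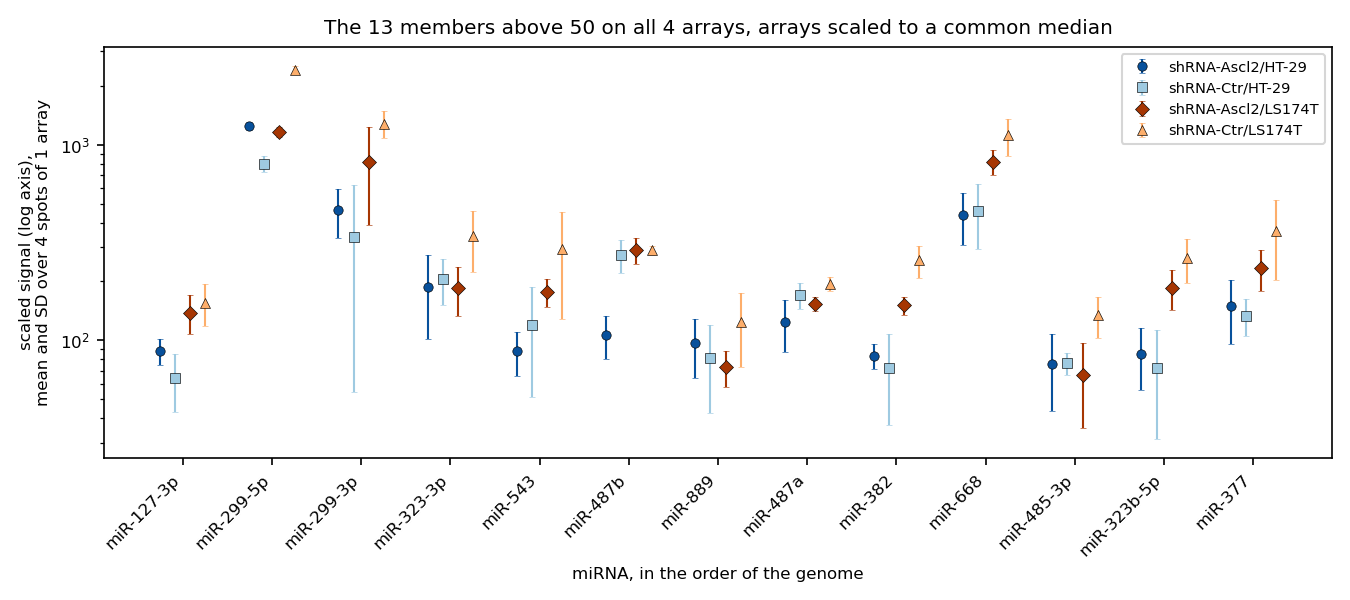
Scaled signal (log axis) of the 13 members above 50 on all 4 arrays, in genome order, as mean and SD over the 4 spots of each array. The LS174T points lie above the HT-29 points for 8 of the 13, and the error bars are technical, since each condition has 1 array.

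Other probes of the same locus that the naming rule leaves out were above 50 in 35.7% on each array. Of 14 such probes (star forms, miR-300, miR-1193 and miR-1197), 5 were above 50 on every array, miR-300, miR-376a*, miR-377*, miR-431* and miR-493*, and 9 on none. For miR-300, brightest on shRNA-Ctr/LS174T, the ratio was 1.04 in HT-29 and 0.72 in LS174T. In HT-29 none of the 5 passed 2-fold, and in LS174T only miR-376a* did, at 59.0 against 131 (ratio 0.44). The median LS174T ratio of the 5 was 0.94, with miR-377*, miR-431* and miR-493* between 0.94 and 0.99, and lay above that of the members.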

How the data were processed

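Total RNA of 4 stable transfectants was labelled with Hy3 and hybridised to Exiqon arrays (array generation 6, miRBase 16), 1 array per condition. The authors scanned the arrays and extracted foreground and background intensities with GenePix Pro 6.0, and these deposited intensity values were used without further correction of the images. The authors' value table holds deposited signal values divided by 1 factor per array and served as an alternative. Their lists of changed miRNAs hold fold changes and were not used, nor were 24 further columns of those lists.

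Background was subtracted from each spot, and the 4 spots of a probe were averaged. A limit of 50 followed the methods' rule for normalization. Ratios used median scaling over probes above 50 on both arrays of a line. Adjusted p-values (Benjamini-Hochberg) came from limma 3.58.1 in R 4.3.3 over 654 human probes above 50 on at least 1 array. The fits were also run on simulated large changes with equal noise and no floor at 50. That run cannot show how they behave on values raised to 50. Named miRNAs are members above 50 on all 4 arrays, past 2-fold, called by limma or among the 3 brightest, with the arms and paralogs that place them, and miR-544b, miR-665, miR-134 and other members at background were named after their values were seen. Names were matched to RefSeq mature sequences (GRCh38.p14), by arm, for 55 of 56 members. Members and lists were chosen with earlier results of these data known. The alternatives changed the limit, the scaling, the background correction, the spot summary, the block range and the fold threshold. The number of arrays limits the precision.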

Additional observations from a re-analysis of the deposited data

How the results depend on the processing

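The count of members above background depended on the limit. At 100 it was 8, 8, 11 and 13, in the order of the arrays used above, beside 31.0 to 32.3% of all human probes. Above the 95th percentile of the viral probes it was 1, 0, 3 and 1, with shares of all human probes near these limits given above. Requiring all spots above 50, an alternative chosen after seeing the data, left 13, 9, 12 and 15. The remaining alternatives (a limit of 25, the median over spots, either block range, a common scaling, the highest negative control) gave 13 to 25. The count of members higher in shRNA-Ascl2/HT-29 (1) became 0 with normexp, without background subtraction, at a limit of 100, at 3-fold, or with values below 50 raised to 50 (also chosen after seeing the data), 2 at 1.5-fold and 3 in blocks 1 to 18. The count lower there (1) became 0 with normexp, without background subtraction or at 3-fold. Of the 8 members lower in shRNA-Ascl2/LS174T, 1 was left with normexp and 1 without background subtraction. At a limit of 100, at 3-fold and with values raised to 50, 2 were left in each. The 1.5-fold threshold gave 15 and spike-in scaling 21, which is all members compared. With that scaling 404 of the 435 human probes above 50 on all arrays were also lower in shRNA-Ascl2 in the fit by vector (median log2 difference -1.52). The 6 other alternatives gave 6 to 9. No alternative gave a higher member in LS174T. With all 4 arrays, every setting of the limma fits by line and by vector gave 0 calls of members. Fits with 1 array left out are given above by effect size only. Apart from the limit of 100, the viral percentile and spike-in scaling, no share of all human probes stands beside the counts above background or past a fold. Those counts describe the members alone, and a moved count is not a result particular to them. Except where the setting itself changes the threshold, the cause was not tested.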

Other observations

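At 3 hairpins the star form was above background while the member named for the main arm was not. miR-376a* read 423, 408.5, 59.0 and 131, in the order of the arrays used above, while miR-376a read -6.25 to 5.5. miR-431* was at 83.0, 108, 216 and 219 and miR-431 at 0.25 to 12.0. For miR-493* the signals were 52, 94.5, 187 and 194.25, and for miR-493 -12.5 to 1.5. Before scaling, these star probes also differed between the lines in opposite ways, which was not tested. miR-376a* was higher on both HT-29 arrays, and miR-431* and miR-493* were higher on both LS174T arrays. After scaling, such an order held for 18.4% (higher in HT-29) and 24.4% (higher in LS174T) of the human probes above 50 on all 4 arrays. miR-300 was above 50 on every array, at 320 and more, and miR-381, whose mature sequence is 3 edits away, read 4.75 to 31.8.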
